A study of Mus musculus with 12 samples.

Results

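Heterotrimeric G proteins and their RGS regulators were followed in 4 groups of sorted mouse B cells. The set holds 40 genes: 12 Gα subunits, 5 Gβ subunits, 11 Gγ subunits and 12 RGS proteins. It was taken up because Gnb3 and Gng13 marked the B1 samples, so the levels of these 2 genes in B1 cells against the other old cells are described below without a test. Of the 40 genes, 39 were represented by at least 1 probe set with a single gene symbol, 98 of the 34945 such probe sets, and among 18193 genes in all. The probe sets of Gng5 also carry the symbol of a pseudogene, and Gng5 was not analysed here.

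All samples came from female C57BL/6 mice and were RNA of cells isolated by flow cytometry without culture, hybridised to 12 Affymetrix arrays. Age-associated B cells (old ABC) and follicular B cells (old FO) were taken from the spleen and B1 cells (old B1, named B1a in the titles) from the peritoneal cavity, in each case of mice older than 15 months. The last group was peritoneal B1 cells of mice aged 8 weeks (young B1). Each group had 3 arrays. The labels do not name the surface markers of the sort, and they do not state that the replicates are separate mice. The spread that the p-values rest on is that of these 12 samples alone and may be technical. Organ and cell type cannot be told apart in the comparisons with B1 cells. In bulk RNA, fewer cells of a type and less RNA per cell cannot be told apart either.

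A heterotrimeric G protein carries the signal of a G protein-coupled receptor into the cell. The receptor makes the Gα subunit exchange GDP for GTP, after which Gα and the paired Gβγ subunits act on separate effectors, such as adenylyl cyclase and phospholipase C-β. RGS proteins speed up GTP hydrolysis by Gα and so end the signal, and in B cells they are known for limiting the response to chemokines and to sphingosine 1-phosphate.

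Sequence upstream of the annotated start came from the RefSeq promoter table (assembly GRCm38.p6), in which 7 of the 12 members described array by array matched an entry. Gng13 is shown because it marks B1 samples, Gng3 and Gng12 because they were higher in both ABC and old B1 than in FO cells, and Rgs2 because it held the most motif matches. Each run is the 250 bases before the first base of the transcript, 5′ to 3′ on the gene's strand, in lower case, with the motif matches in capitals. The Gng13 window lies at chr17:25716922-25717171 on the plus strand, the Gng3 window at chr19:8839247-8839496 on the minus strand, the Gng12 window at chr6:66896147-66896396 on the plus strand and the Rgs2 window at chr1:144004150-144004399 on the minus strand.
Gng13: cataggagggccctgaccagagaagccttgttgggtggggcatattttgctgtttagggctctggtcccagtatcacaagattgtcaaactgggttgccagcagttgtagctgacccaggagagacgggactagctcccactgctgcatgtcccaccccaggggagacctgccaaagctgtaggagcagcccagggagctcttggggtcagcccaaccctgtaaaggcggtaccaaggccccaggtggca
Gng3: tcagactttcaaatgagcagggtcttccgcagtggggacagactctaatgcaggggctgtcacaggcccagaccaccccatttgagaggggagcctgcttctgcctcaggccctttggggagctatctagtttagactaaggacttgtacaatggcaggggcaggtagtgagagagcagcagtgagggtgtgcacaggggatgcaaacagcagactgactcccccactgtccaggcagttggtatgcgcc
Gng12: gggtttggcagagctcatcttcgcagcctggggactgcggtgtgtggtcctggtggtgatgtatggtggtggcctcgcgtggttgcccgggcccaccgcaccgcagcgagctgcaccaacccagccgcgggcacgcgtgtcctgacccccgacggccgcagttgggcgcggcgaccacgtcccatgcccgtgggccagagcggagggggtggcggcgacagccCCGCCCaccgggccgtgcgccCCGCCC
Rgs2: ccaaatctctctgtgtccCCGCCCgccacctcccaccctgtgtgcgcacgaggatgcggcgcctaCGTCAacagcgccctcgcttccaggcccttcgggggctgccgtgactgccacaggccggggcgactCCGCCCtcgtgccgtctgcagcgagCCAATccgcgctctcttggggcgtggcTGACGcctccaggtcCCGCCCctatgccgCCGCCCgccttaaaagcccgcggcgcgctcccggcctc

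The motifs were searched on both strands, and the share of all 32851 such windows (27025 genes) that hold each is given in turn: CACGTG (an E-box, 6.02%), AGGTGTGA (a T-box core, 1.12%), AACAAT (a Sox core, 9.42%), CCAAT (33.8%), TATAAA (12.4%), GGGCGG (the GC box, 32.7%), TGACGTCA (the cAMP response element, 1.55%) and TGACG (its half-element, also contained in the whole element, 17.8%). The Rgs2 window held 7 matches: CCAAT at position -94 from the start, GC boxes on the reverse strand at -232, -119, -52 and -38, and half-elements at -185 on the reverse and -67 on the forward strand. Gng12 held 2 GC boxes on the reverse strand, at -27 and -6. None of these letters was found in the printed windows of Gng13 and Gng3, which says nothing about the factors. The GC content was 58.8% for Gng13, 56.8% for Gng3, 74.4% for Gng12 and 72.4% for Rgs2, against a median of 52.4% over all windows. Gng13 and Gng12 each have a second annotated start whose sequence is not shown: that window of Gng13 held 3 GC boxes, at -123 and -118 on the forward and -39 on the reverse strand, and that of Gng12 held 0 of the motifs.

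Of the B cell markers, Cd79a lay between 13.08 and 13.37 and Ms4a1 between 12.91 and 13.19 on the log2 scale on all 12 arrays. The summed intensity of 9 B cell genes ran from 56190 to 64352. Among these, Pax5 (-1.30), Cd22 (-0.59) and Ebf1 (-0.53) were called lower and Blk (0.42) higher in old B1 than FO. Ebf1 was also called lower in ABC than FO (-0.53). Pax5 read 5.41, 5.33 and 4.40 on old B1, where 8 of the 9 genes lay above the array median. The median intensity per array was 44.0 to 49.2. Old B1 replicate 3 and old FO replicate 2 stood apart, with 75th percentiles of 346 and 378 against 400 to 412 on the other arrays. Genes listed as markers of other cell types gave signal too. Whether it came from other cells or from the B cells themselves was not tested, and the lists include the integrin genes Itgam (macrophage) and Itgax (dendritic). Over all genes, 7.12% were called higher in ABC than FO, 7.4% in ABC than old B1 and 8.4% in old B1 than FO. The summed intensity of 16 macrophage genes was 15833 to 17166 in ABC, 1059 to 2893 in FO, 9321 to 32078 in old B1 and 15632 to 27724 in young B1, with 10 of the 16 called higher in ABC than FO and 15 of the 16 higher in old B1 than FO. For 11 neutrophil genes it was 20884 to 35658 in ABC, 489 to 10046 in FO, 232 to 452 in old B1 and 397 to 1545 in young B1, with 7 called higher in ABC than FO and 10 higher in ABC than old B1. For 9 mast cell genes it was 442 to 1216 in ABC, 192 to 210 in FO, 2054 to 5025 in old B1 and 2321 to 10179 in young B1, with 3 called higher in ABC than FO and 6 higher in old B1 than FO. Of 9 T cell, 7 natural killer cell and 9 dendritic cell genes, 1, 2 and 3 were called higher in ABC than FO. No marker is at 0 on these arrays. The part of other cell types in the results that follow was not tested.

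**Figure D1:**
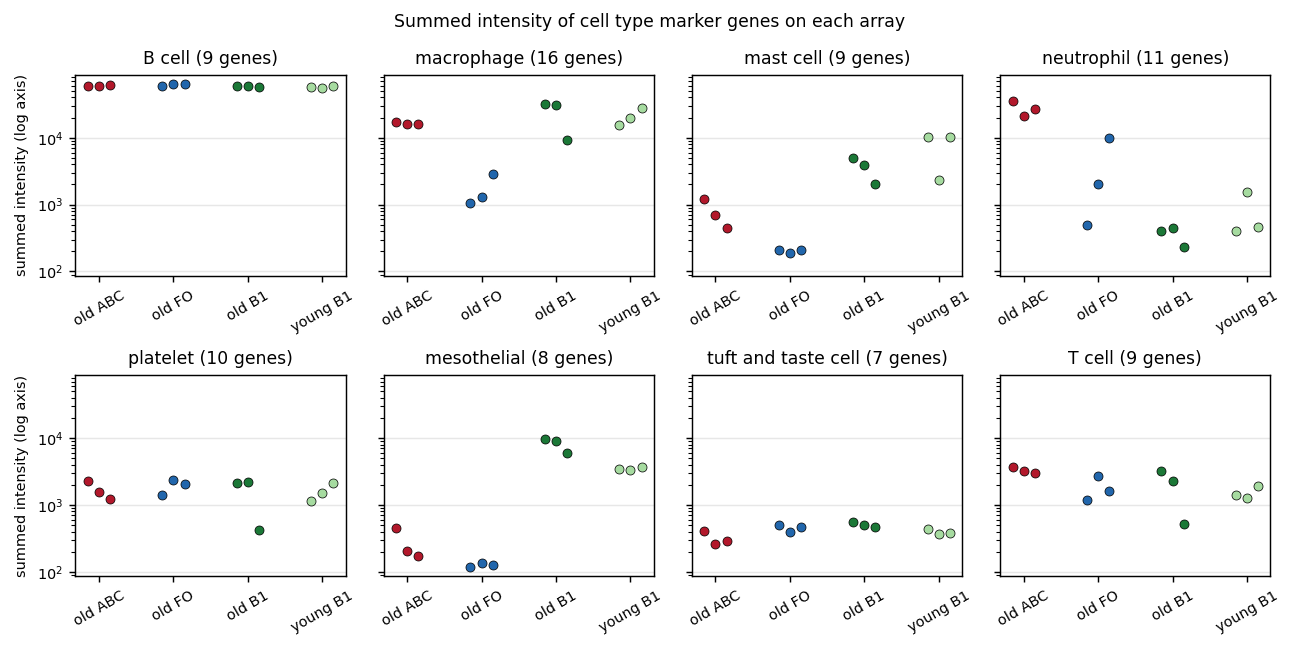
Summed linear intensity (log axis) of the marker genes of 8 cell types on each of the 12 arrays, 1 point per array and 1 colour per group. The B cell sum sits at a similar level on all arrays, the macrophage sum is lowest in old FO and the neutrophil sum is highest in old ABC. The mesothelial sum, carried by the keratins Krt18 and Krt8, is high in both B1 groups.

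Below, levels are log2 intensity, n is 3 arrays a group, ± marks a standard error unless SD is written, and adjusted p is that of limma over 18193 genes. A gene was called at an adjusted p under 0.05. A member was described array by array if it was called with a log2 difference of at least 1 and its higher group lay at or above the median probe set, and Gnb3 and Gng13 were described whatever their result. No level of a probe set can be set against that of another gene's probe set.

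Gnb3 and Gng13 encode the Gβ3 and Gγ13 subunits, known from cone photoreceptors and from taste cells respectively. Gnb3 read 10.98, 10.29 and 12.47 on the old B1 arrays, 8.55, 8.22 and 8.74 on young B1, 7.37, 5.29 and 5.38 on old ABC and 4.91, 4.96 and 5.16 on old FO. Gng13 read 10.80, 10.08 and 11.68 on old B1, 8.43, 8.94 and 9.17 on young B1, 7.42, 5.55 and 5.31 on old ABC and 4.01, 3.49 and 3.96 on old FO. Both genes followed the same order, old B1 above young B1 above ABC above FO, with no overlap between neighbouring groups, and both were highest on old B1 replicate 3 and, within ABC, on ABC replicate 1. On the FO arrays Gnb3 lay at the 43.5 to 46.4 percentile of its array and Gng13 at the 19.1 to 30.6 percentile, in the dim range where a fold is least exact.

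Old B1 cells exceeded FO by 6.24 ± 0.60 for Gnb3 (75.5-fold) and by 7.03 ± 0.54 for Gng13 (131-fold). The difference of ABC minus old B1 was -5.24 ± 0.60 for Gnb3 (37.7-fold lower in ABC) and -4.76 ± 0.54 for Gng13 (27.1-fold lower). These differences chose the genes and carry no test. Without old B1 replicate 3, on which both genes were highest, old B1 minus FO was 5.63 for Gnb3 and 6.62 for Gng13, and without ABC replicate 1 ABC minus old B1 was -5.92 and -5.42. Gng13 has another probe set, with a mean of 6.32 over the 12 arrays, which read flat: old B1 minus FO was 0.09 ± 0.15 and ABC minus old B1 was -0.18 ± 0.15. With the mean of both probe sets the differences were 3.56 and -2.47. Gnb3 has 1 probe set. Chtf18, which overlaps Gng13 in the annotation, differed by 0.31 ± 0.33 between old B1 and FO (adjusted p = 0.601, limma).

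The genes were chosen as marks of B1 samples, and the comparisons of ABC with FO and of old with young B1 were tested. Both reuse arrays that led to the choice, so these tests are not independent of it. Between ABC and FO, Gng13 was higher in ABC by 2.27 ± 0.54 (4.83-fold, adjusted p = 0.0219, limma), with all 3 ABC arrays above all 3 FO arrays. The second probe set of Gng13 differed by -0.10 ± 0.15 (adjusted p = 0.846), and the mean of both by 1.09 (adjusted p = 0.0441). Without ABC replicate 1 the difference was 1.61 (adjusted p = 0.0436), and the call was lost without FO replicate 1, 2 or 3 (adjusted p = 0.0572, 0.0759 and 0.0602). Gnb3 missed the threshold at 1.0 ± 0.60 (adjusted p = 0.413) and passed it with array weights (1.53, adjusted p = 0.0385). On ABC replicate 1, where Gnb3 and Gng13 were highest within ABC, the keratin Krt18 read 7.64, against 5.12 and 6.02 on the other ABC arrays. Krt18 was not alone in this. That array also had the highest ABC sums of neutrophil genes (35658 against 20884 and 26680), mast cell genes (1216 against 698 and 442) and natural killer cell genes (2616 against 1277 and 1448). The dendritic cell sum was highest on ABC replicate 2 (6359 against 4596 on replicate 1).

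Between old and young B1 cells neither gene was called, although the arrays did not overlap. Gnb3 was higher in old B1 by 2.74 ± 0.60 (6.70-fold, adjusted p = 0.137, limma) and Gng13 by 2.01 ± 0.54 (4.02-fold, adjusted p = 0.255). Without old B1 replicate 3, Gnb3 differed by 2.13 and Gng13 by 1.60. Over the fits that leave out 1 array, Gnb3 ran from 2.13 to 3.22 with an adjusted p of 0.0541 to 0.442, and Gng13 from 1.60 to 2.39 with 0.0784 to 0.738.

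Markers of other cells were set beside this pair. Of 8 mesothelial genes only the keratins Krt18 and Krt8 were high in B1 cells, while the keratin Krt19 read 3.84 to 5.30 there. Krt18 read 12.30, 11.90 and 12.33 on old B1, 9.92, 9.99 and 9.95 on young B1, 7.64, 5.12 and 6.02 on ABC and 3.81, 4.36 and 4.16 on FO. Krt8 read 12.19, 12.30 and 9.54 on old B1, 11.19, 11.11 and 11.34 on young B1, 7.39, 6.43 and 4.69 on ABC and 4.44, 4.83 and 4.69 on FO. On old B1 replicate 3 Krt8 was thus below all young B1 arrays. The defining mesothelial genes Msln (3.16 to 3.63), Upk3b (3.69 to 4.89) and Wt1 (2.78 to 3.48) were low on all 12 arrays. Of 7 genes of tuft and taste cells, the cells in which Gng13 is known to act, the summed intensity was 472 to 557 in old B1, 367 to 435 in young B1, 263 to 406 in ABC and 398 to 508 in FO, and Pou2f3, the defining factor of tuft cells, lay between 2.57 and 3.21 on all arrays. The brightest of the 7 on every array was Plcb2 (6.86 to 8.52), which is also listed among the effectors below, so the sum largely follows that gene. On old B1 replicate 3, where Gnb3 and Gng13 were highest, the summed intensity was lowest of the old B1 arrays for macrophage genes (9321 against 30695 and 32078), mast cell genes (2054 against 3908 and 5025) and T cell genes (522 against 2263 and 3187).

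**Figure D2:**
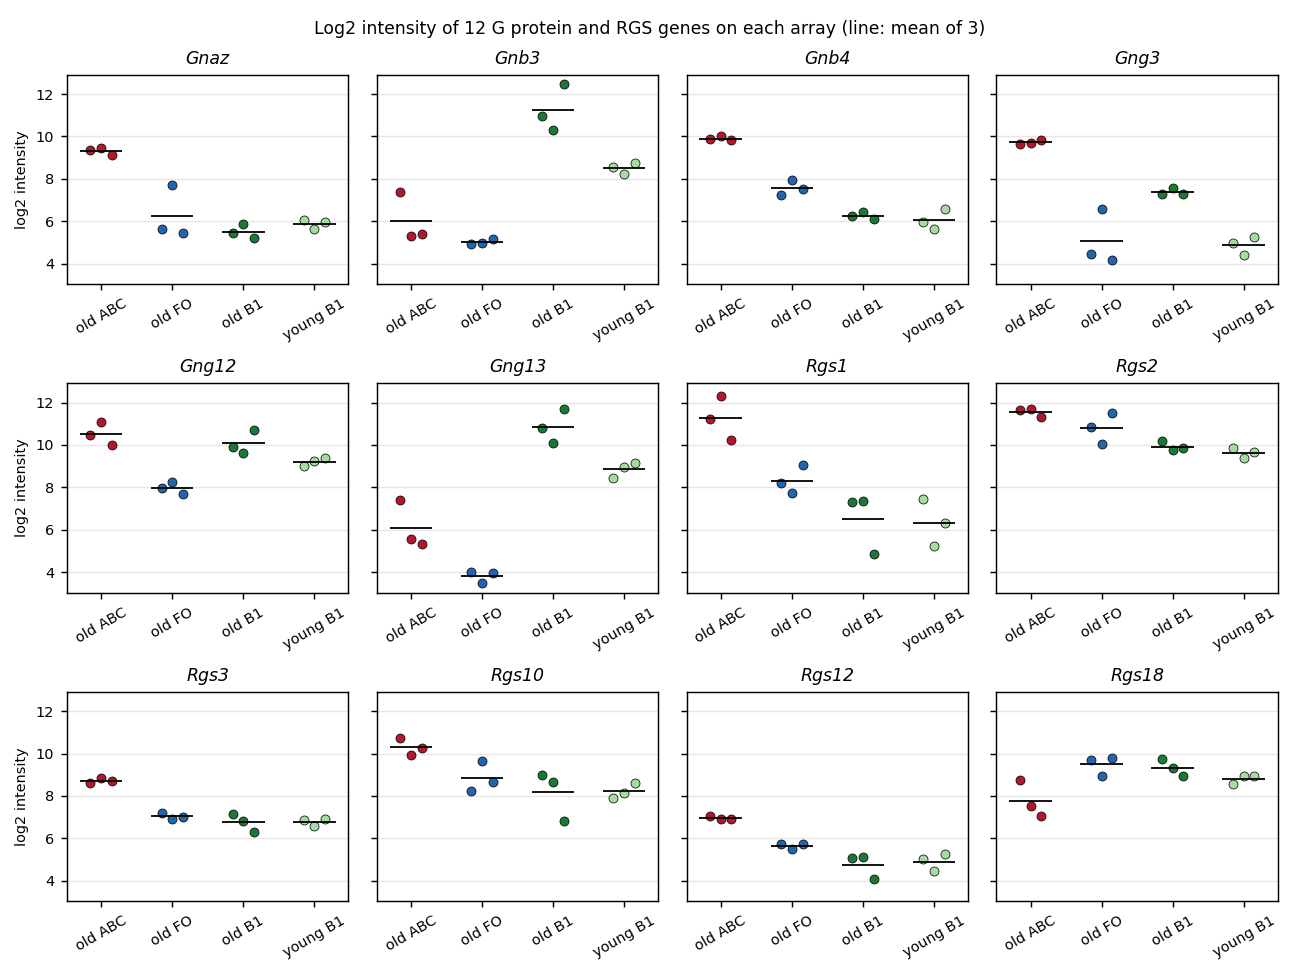
Log2 intensity of 12 members on each array, 1 point per array, with the mean of the 3 arrays of a group as a line. Gnb3 and Gng13 are highest in old B1 and next in young B1, while Gnaz, Gnb4, Rgs3 and Rgs12 are highest on the old ABC arrays.

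Old ABC and old FO cells share organ and age, and their comparison asks what distinguishes the age-associated cells. Of the 39 members, 9 were higher and 2 lower in ABC, where 9.96% of all genes were called (7.12% higher, 2.84% lower). The higher ones were 1 Gα gene (Gnaz), 2 Gβ genes (Gnb4, Gnb5), 3 Gγ genes (Gng3, Gng12, Gng13) and 3 RGS genes (Rgs1, Rgs3, Rgs12), and the lower ones were Gna13 and Rgs18. Gng13 is 1 of the 2 genes for which the set was taken up. The median difference over the 39 members was 0.08, against -0.033 over all genes. The groups did not overlap for 16 members, 11 higher and 5 lower, as for 28.8% of all genes (15.2% higher, 13.6% lower). At an unadjusted p under 0.05 there were also 16 members, against 20.4% of all genes. Old ABC against old B1 shares the ABC arrays with this comparison. There 10 of the other 37 members were higher and 1 lower in ABC, where 12.8% of all genes were called (7.4% higher, 5.43% lower), with a median of 0.08 against 0.016. The groups did not overlap for 17 of these 37, 12 higher and 5 lower, against 28.8% of all genes (17% higher, 11.8% lower), and 14 had an unadjusted p under 0.05, against 25.5%.

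Gnaz encodes Gαz, a member of the inhibitory Gα class that hydrolyses GTP slowly. It read 9.35, 9.44 and 9.13 on the ABC arrays, 5.62, 7.71 and 5.46 on FO, 5.47, 5.85 and 5.22 on old B1 and 6.04, 5.65 and 5.95 on young B1. ABC stood above all other arrays, and FO replicate 2 was the one array between. Gnaz was higher in ABC than FO by 3.04 ± 0.48 (8.24-fold, adjusted p = 0.00218, limma) and higher in ABC than old B1 by 3.80 ± 0.48 (adjusted p = 0.000509), and its other probe set differed by 2.65 and 2.91. Without FO replicate 2 the difference from FO was 3.77 (adjusted p = 6.16e-06). Rsph14, which overlaps it, was not called in any comparison.

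Of the other 11 Gα genes only Gna13 was called in any comparison by the probe set used. The inhibitory Gnai2 (12.24 to 12.60) and Gnai3 (10.98 to 11.55), Gnas, which activates adenylyl cyclase (12.55 to 12.99), and Gna11 (9.25 to 9.69) and Gnaq (7.95 to 9.06), which activate phospholipase C-β, were above the array median on all arrays and called in none of the 4 comparisons. Gna13, which is known to restrain germinal centre B cells, was lower in ABC, at 11.58 ± 0.09 (SD) against 12.05 ± 0.13 in FO, a difference of -0.47 ± 0.11 (adjusted p = 0.0171, limma). All 6 other probe sets of Gna13 read lower too, with differences from -0.74 to -0.52, 3 of them called. The call of Gna13 was lost without ABC replicate 1 or 2 or FO replicate 2 or 3 (adjusted p 0.0503 to 0.0675). Gna12, of the same class, differed by -0.30 (adjusted p = 0.782). Gna15, an alpha subunit of the q class found in blood cells, was dim on all arrays and read 4.75 in ABC against 5.34 in FO, not called (adjusted p = 0.0691), and called without old B1 replicate 1 or 3 (adjusted p = 0.0422 and 0.0160), with the replicate number as a block (-0.60, adjusted p = 0.0231), with array weights (adjusted p = 0.0198) and with median centring (adjusted p = 0.0390). Gnao1 and Gnal, the neuronal and olfactory Gα genes, and Gnai1 were near or below the array median and not called here.

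Gnb4 encodes Gβ4. It read 9.87, 10.01 and 9.82 on ABC, 7.22, 7.97 and 7.51 on FO, 6.24, 6.42 and 6.11 on old B1 and 5.95, 5.62 and 6.60 on young B1. ABC was above FO and FO above both B1 groups, with no overlap between these 3 steps, while old and young B1 arrays overlapped. Gnb4 was higher in ABC than FO by 2.33 ± 0.24 (5.03-fold, adjusted p = 0.000161, limma), and than old B1 by 3.64 ± 0.24 (adjusted p = 8.15e-06). Its other 2 probe sets differed by 2.23 and 1.77 against FO and by 2.54 and 2.29 against old B1. Gnb5, which pairs with the R7 class of RGS proteins, was dim on all arrays, at 5.20 ± 0.15 (SD) in ABC, 4.20 ± 0.29 in FO, 4.47 ± 0.03 in old B1 and 4.80 ± 0.13 in young B1. It was called higher in ABC against FO (1.0 ± 0.15, adjusted p = 0.00144) and against old B1 (0.73 ± 0.15, adjusted p = 0.00779), and its dimmer second probe set differed by 0.16 in both. Gnb1 (12.58 to 13.03) and Gnb2 (9.52 to 9.85), the common Gβ subunits, were called in no comparison.

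Gng3 encodes Gγ3, best known from brain. It read 9.65, 9.67 and 9.84 on ABC, 4.45, 6.58 and 4.18 on FO, 7.31, 7.55 and 7.28 on old B1 and 4.97, 4.42 and 5.24 on young B1. ABC arrays were highest, old B1 arrays came next without overlap, and FO and young B1 arrays overlapped at the low end. Gng3 was higher in ABC than FO by 4.65 ± 0.51 (25.1-fold, adjusted p = 0.000196, limma) and than old B1 by 2.34 ± 0.51 (adjusted p = 0.0114). Without FO replicate 2 the difference from FO was 5.41 (adjusted p = 2.08e-06). It has 1 probe set. Bscl2, which overlaps Gng3, was higher in ABC by 0.79 ± 0.12 against FO (adjusted p = 0.00133) and by 0.42 ± 0.12 against old B1 (adjusted p = 0.0353).

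Gng12 encodes Gγ12, a broadly used subunit. It read 10.47, 11.07 and 10.02 on ABC, 7.98, 8.24 and 7.71 on FO, 9.90, 9.64 and 10.71 on old B1 and 9.03, 9.23 and 9.39 on young B1. FO arrays were lowest, and ABC and old B1 arrays overlapped. Gng12 was higher in ABC than FO by 2.54 ± 0.31 (5.83-fold, adjusted p = 0.000382, limma), with 2.28 in its other probe set, and differed from old B1 by 0.44 ± 0.31 (adjusted p = 0.413). Gng11, a gamma subunit of the transducin-like class, was higher in ABC than old B1 by 0.99 ± 0.26 (adjusted p = 0.0306), a call lost without ABC replicate 2 or old B1 replicate 1 or 2 (adjusted p 0.0526 to 0.0791), and against FO it differed by 0.79 ± 0.26 (adjusted p = 0.0951, and 0.0380 without ABC replicate 3). Gng2 (10.97 to 12.23) and Gng10 (12.41 to 12.66) were above the array median throughout, as was Gngt2 (7.14 to 8.43), and Gng4, Gng7 and Gng8 were near or below it. None of these 6 was called in any comparison by the probe set used, the brightest of each gene. The other 2 probe sets of Gng4, with means of 3.36 and 4.42 against 5.61 in the one used, were called higher in ABC, by 1.88 and 2.90 against FO (adjusted p = 0.00749 and 0.00236, limma) and by 2.18 and 2.41 against old B1 (adjusted p = 0.00266 and 0.00622). The one used differed by -0.15 and 0.13, and the mean of all 3 by 1.54 (adjusted p = 0.00261) and 1.57 (adjusted p = 0.00194).

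Rgs1, an immediate-early regulator of chemokine signals in B cells, varied over the widest range of the RGS genes, and its replicates spread widely. It read 11.21, 12.32 and 10.25 on ABC, 8.20, 7.72 and 9.05 on FO, 7.32, 7.34 and 4.84 on old B1 and 7.44, 5.23 and 6.33 on young B1. All ABC arrays were above all others. Rgs1 was higher in ABC than FO by 2.94 ± 0.79 (7.66-fold, adjusted p = 0.0401, limma), a call lost without ABC replicate 1 or 2, any of the FO arrays or young B1 replicate 3 (adjusted p 0.0607 to 0.148) and with the replicate number as a block (adjusted p = 0.0634). Against old B1 it was higher by 4.76 ± 0.79 (adjusted p = 0.00259), and by 3.93 without old B1 replicate 3 (adjusted p = 0.00286).

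Rgs2, a regulator with a preference for Gαq, read 11.63, 11.72 and 11.33 on ABC, 10.83, 10.07 and 11.51 on FO, 10.17, 9.75 and 9.86 on old B1 and 9.85, 9.38 and 9.68 on young B1. FO replicate 3 reached into the ABC range, and ABC and B1 did not overlap. Rgs2 was higher in ABC than old B1 by 1.63 ± 0.30 (3.10-fold, adjusted p = 0.00494, limma). Against FO the difference of 0.76 ± 0.30 was not called (adjusted p = 0.177), and without FO replicate 3 it was 1.11 (adjusted p = 0.0248).

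Rgs3, which acts on Gαi and Gαq, read 8.60, 8.86 and 8.69 on ABC, 7.21, 6.93 and 6.99 on FO, 7.14, 6.84 and 6.31 on old B1 and 6.85, 6.60 and 6.89 on young B1. Only ABC stood apart. Rgs3 was higher in ABC by 1.68 ± 0.19 against FO (3.20-fold, adjusted p = 0.000258, limma) and by 1.96 ± 0.19 against old B1 (adjusted p = 9.57e-05), and its other 3 probe sets differed by 1.40 to 2.05 and by 1.81 to 3.12.

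Rgs10, a small regulator of Gαi known from myeloid cells and microglia, read 10.75, 9.93 and 10.26 on ABC, 8.25, 9.63 and 8.68 on FO, 9.01, 8.66 and 6.82 on old B1 and 7.90, 8.14 and 8.60 on young B1. ABC was highest without overlap, FO replicate 2 was the nearest and old B1 replicate 3 the lowest array. Rgs10 was higher in ABC than old B1 by 2.15 ± 0.54 (4.45-fold, adjusted p = 0.0232, limma), a call lost without ABC replicate 1 or 3 (adjusted p = 0.0863 and 0.0612), with 1.48 left without old B1 replicate 3 (adjusted p = 0.0249). Against FO it differed by 1.46 ± 0.54 (adjusted p = 0.136), and the same difference was called without old B1 replicate 3 (adjusted p = 0.0148).

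Rgs12, a large multidomain regulator, read 7.07, 6.90 and 6.92 on ABC, 5.75, 5.51 and 5.72 on FO, 5.07, 5.12 and 4.10 on old B1 and 5.02, 4.44 and 5.25 on young B1. The 3 old groups did not overlap. Rgs12 was higher in ABC by 1.31 ± 0.27 against FO (2.47-fold, adjusted p = 0.0111, limma) and by 2.20 ± 0.27 against old B1 (adjusted p = 0.000447). Its other 2 probe sets, with means of 3.71 and 3.45, differed by -0.14 and 0.00 against FO and by 0.13 and 0.51 against old B1, and the mean of all 3 was not called against FO (0.39, adjusted p = 0.0536).

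Rgs18, a regulator known from platelets and other blood cells, went the other way. It read 8.76, 7.54 and 7.05 on ABC, 9.71, 8.96 and 9.79 on FO, 9.75, 9.30 and 8.96 on old B1 and 8.55, 8.95 and 8.93 on young B1. ABC was below FO and old B1 on all arrays, with ABC replicate 1 close to them and above young B1 replicate 1. Rgs18 was lower in ABC against FO (-1.70 ± 0.40, 3.26-fold, adjusted p = 0.0208, limma) and against old B1 (-1.56 ± 0.40, adjusted p = 0.0267), and its other probe set by -1.88 and -1.79. The first call was lost without ABC replicate 2 or 3 or FO replicate 1 or 3 (adjusted p 0.0753 to 0.0846), and the second without ABC replicate 2 or 3 or old B1 replicate 1 or 2 (adjusted p 0.0584 to 0.0991). Of 10 platelet markers, 3 were called higher in ABC than FO, namely Ppbp (1.65 ± 0.42, adjusted p = 0.0305), Clec1b (2.05 ± 0.29, adjusted p = 0.00107) and Tubb1 (1.88 ± 0.49, adjusted p = 0.0353), and none was called lower. The summed intensity of all 10 was 1224 to 2313 in ABC and 1418 to 2348 in FO. In FO most of that sum was Itgb3, which ran against the called genes. It read 10.02, 10.96 and 10.43 on FO and 9.39, 9.12 and 9.08 on ABC. The overlap of the sums therefore does not show equal platelet signal.

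The other 6 RGS genes were called in no comparison by the probe set used. Rgs13, a regulator of germinal centre B cells, spread over 4.62 to 8.57. It read 8.25, 5.79 and 4.89 within ABC alone, and against old B1 it was called without ABC replicate 1 (-2.36, adjusted p = 0.0453). Rgs14 (9.24 to 9.87) and Rgs19 (12.15 to 12.71), both regulators of Gαi, kept to a narrow range, and Rgs5, Rgs9 and Rgs16 were near or below the array median. Rgs16, called without ABC replicate 1 against old B1 (0.38, adjusted p = 0.0444), ran from 5.29 to 5.73. Another Rgs16 probe set was called higher in ABC than old B1 (0.72, adjusted p = 0.0193), as was the mean of all of them (0.59, adjusted p = 0.00811).

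**Figure D3:**
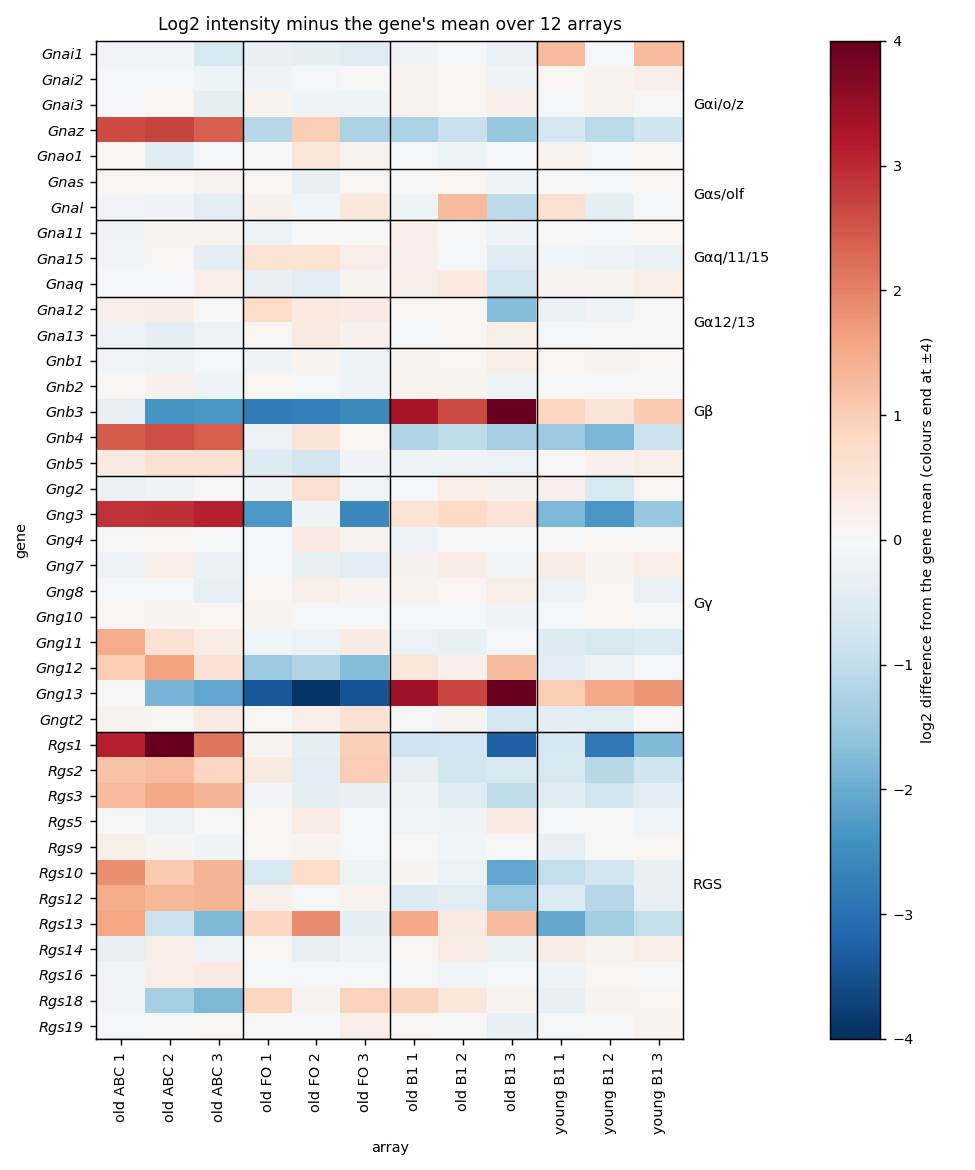
Log2 intensity of the 39 measured members on the 12 arrays, each minus the gene's mean over the arrays, with genes in rows by role and arrays in columns by group. Red is above and blue below the gene's mean, and colours end at 4 in either direction. Most rows are pale, and the strong colours lie in Gnaz, Gnb3, Gnb4, Gng3, Gng12, Gng13 and several RGS rows.

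Old B1 cells of the peritoneal cavity were compared with old FO cells of the spleen. They share arrays with both comparisons above. Of the 37 members other than Gnb3 and Gng13, 2 were higher and 2 lower in old B1, where 16.4% of all genes were called (8.4% higher, 8.02% lower). The median difference was -0.06 against -0.038 over all genes. The groups did not overlap for 10 of the 37, 3 higher and 7 lower, against 28.9% of all genes (12.3% higher, 16.6% lower), and 11 had an unadjusted p under 0.05, against 28.6%. Both higher genes encode Gγ subunits. Gng12 was higher in old B1 by 2.11 ± 0.31 (4.31-fold, adjusted p = 0.000878, limma), with 2.34 in its other probe set, and Gng3 by 2.31 ± 0.51 (4.96-fold, adjusted p = 0.00997). Gng3 was 3.07 higher without FO replicate 2, the FO array on which it was highest. Bscl2, the overlapping gene, differed by 0.37 ± 0.12 (adjusted p = 0.0534).

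Gnb4 was lower in old B1 than FO (-1.31 ± 0.24, adjusted p = 0.00404, limma), and its other probe sets differed by -0.31 and -0.52, neither called. Rgs12 was lower (-0.89 ± 0.27, adjusted p = 0.0487), and the call was lost in 9 of the 12 fits that leave out 1 array, without old B1 replicate 3 at -0.56 (adjusted p = 0.0819), and with the replicate number as a block (adjusted p = 0.0771). Of the other 2 probe sets of Rgs12, 1 was called (-0.51, adjusted p = 0.0235, limma) and 1 was not (-0.27, adjusted p = 0.201). By the probe set used, the remaining RGS genes, Gα genes and Gβ genes did not pass. A pair of other Gna13 probe sets were called lower in old B1 (-1.45 and -1.68, adjusted p = 0.0397 and 0.0327, limma), and so was the mean of all its probe sets (-0.61, adjusted p = 0.00227). Rgs1 differed by -1.82 ± 0.79 (adjusted p = 0.157) although the arrays did not overlap, and Rgs2 by -0.88 ± 0.30 (adjusted p = 0.0765), called at -1.25 without FO replicate 2 (adjusted p = 0.00601). One other Rgs2 probe set (-0.64, adjusted p = 0.0130) and the mean of all of them (-0.78, adjusted p = 0.0420) were called. Gna15 was called with the replicate number as a block (-0.56, adjusted p = 0.0211) and without old B1 replicate 1 (-0.73, adjusted p = 0.0221) and Gnaq without old B1 replicate 3 (0.52, adjusted p = 0.0496).

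Old and young B1 cells share the organ and the cell type and differ in age. None of the 39 members was called by limma, where 0.291% of all genes were called (0.159% higher, 0.132% lower). At an unadjusted p under 0.05 there were 8 members, against 7.57% of all genes. The arrays did not overlap for 10 members, 7 higher and 3 lower in old B1, as for 13.9% of all genes (6.14% higher, 7.75% lower). Among the 7 higher were Gnb3, Gng13, Gng3, Gng12 and Rgs13.

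Gng3 was higher in old B1 by 2.50 ± 0.51 (5.67-fold, adjusted p = 0.105, limma). It was called without FO replicate 2 (2.50, adjusted p = 0.00281), with array weights (2.48, adjusted p = 0.00485) and without both arrays that stand apart (2.55, adjusted p = 0.000992). The last fit was added after the data had been seen. FO replicate 2 is in neither group compared, so leaving it out changed only the spread shared by all groups. Of the 12 fits that leave out 1 array, 1 called Gng3, with differences of 2.28 to 2.69 and an adjusted p of 0.00281 to 0.39. Bscl2 differed by -0.14 ± 0.12 in this comparison. Rgs13 was higher by 2.50 ± 0.81 (adjusted p = 0.418), reading 8.17, 7.01 and 7.92 on old B1 against 4.62, 5.26 and 5.71 on young B1. Gng12 differed by 0.87 ± 0.31 (adjusted p = 0.510). Gnai1, dim in all groups, differed by -0.99 ± 0.31 (adjusted p = 0.387) and was called without young B1 replicate 2 (-1.43, adjusted p = 0.0286). The summed intensity of macrophage and mast cell genes overlapped between the old and young B1 arrays, and that of the mesothelial list did not (5982 to 9810 against 3340 to 3670).

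**Figure D4:**
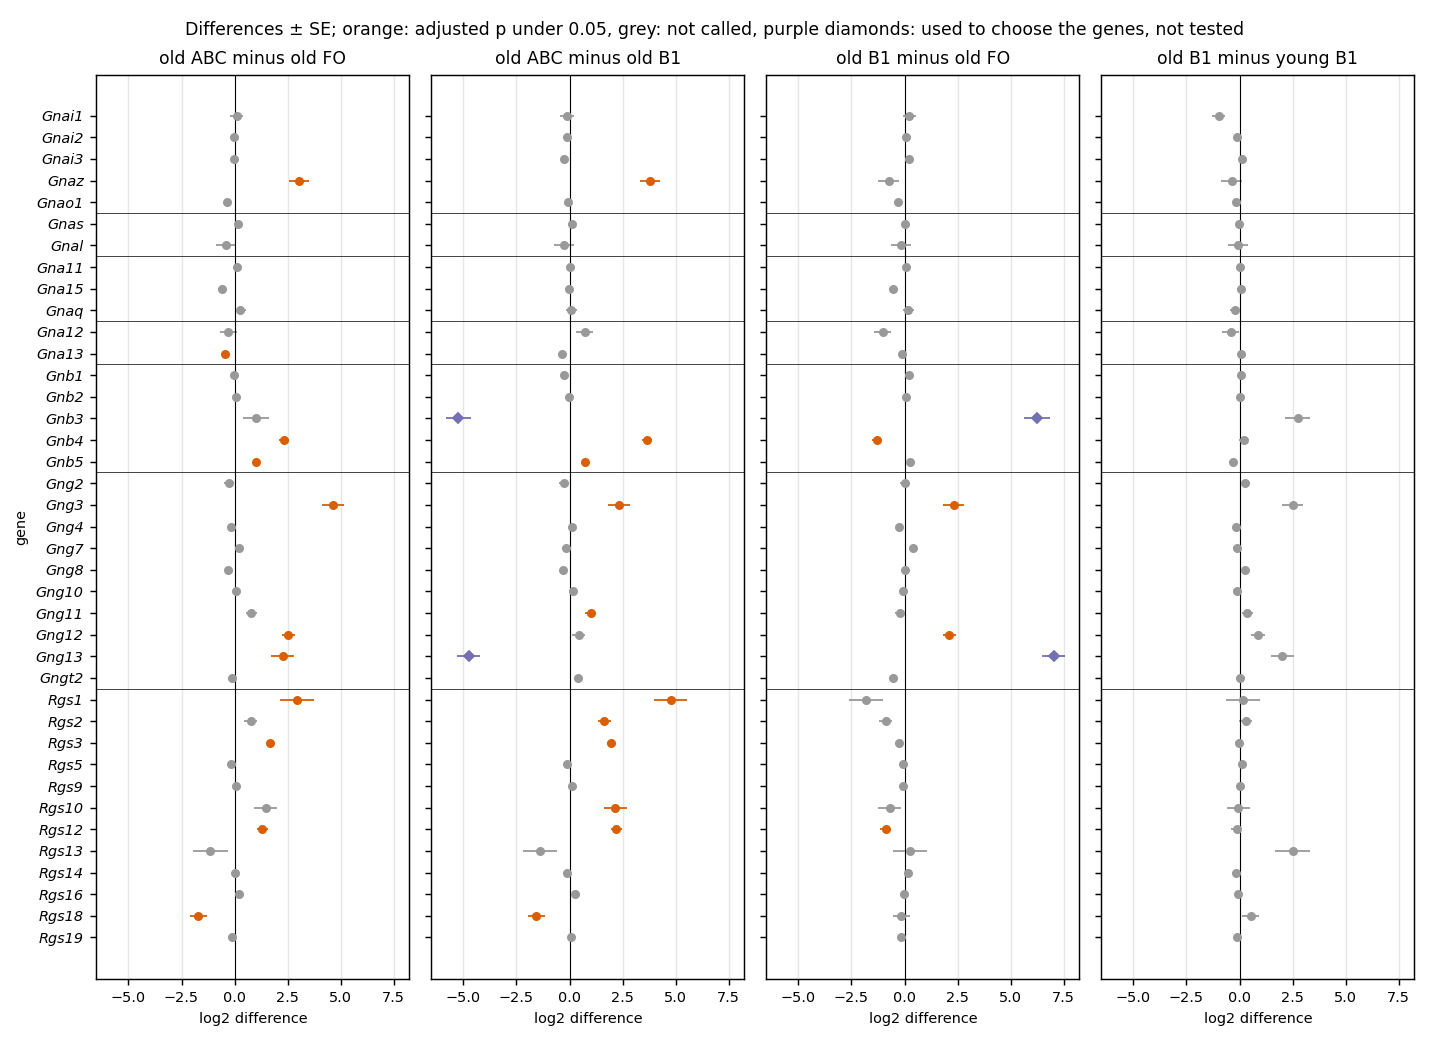
Log2 differences of the 39 measured members in the 4 comparisons, with standard errors as bars and genes by role. Orange points were called at an adjusted p under 0.05, grey points were not, and purple diamonds mark Gnb3 and Gng13 where their values chose the genes. Orange points number 11, 11, 4 and 0 from left to right.

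The wider pathway was described from lists chosen by function, whose counts stand against all genes: 9.96% called in ABC against FO (7.12% higher, 2.84% lower), 16.4% in old B1 against FO (8.4% higher, 8.02% lower) and 0.291% in old against young B1. Of 13 other G protein and RGS genes measured, 0 were called by limma in the 4 comparisons, and at an unadjusted p under 0.05 there were 2 in ABC against FO, 2 in old B1 against FO and 0 in the others. Of 24 receptors that couple to Gi, 8 were higher and 1 lower in ABC than FO, with a median difference of 0.63 against -0.033 over all genes. The ADP receptors P2ry12 (2.27 ± 0.16, adjusted p = 1.19e-05) and P2ry13 (3.47 ± 0.32, adjusted p = 6.36e-05), the formyl peptide receptor Fpr2 (3.70 ± 0.76, adjusted p = 0.0102) and the chemokine receptor Ccr2 (2.37 ± 0.54, adjusted p = 0.0183) were among them. Between old B1 and FO 6 were higher and 5 lower. P2ry12 (1.61 ± 0.16, adjusted p = 6.39e-05) and Ccr2 (3.29 ± 0.54, adjusted p = 0.00192) were among the higher ones here too. The lower ones included the chemokine receptors Ccr6 (-5.03 ± 0.36, adjusted p = 7.63e-06) and Ccr7 (-2.07 ± 0.19, adjusted p = 3.56e-05) and the cannabinoid receptor Cnr2 (-2.99 ± 0.21, adjusted p = 7.15e-06). Ccr7, which guides B cells to T cell zones, was also lower in old than young B1 (-1.20 ± 0.19, adjusted p = 0.0307).

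Of 9 Gs-coupled receptors only Calcrl, the CGRP and adrenomedullin receptor, was called in ABC against FO (-1.52 ± 0.21, adjusted p = 0.000803, limma). Of 15 receptors for Gq and G12/13, 2 were lower in ABC than FO, the thromboxane receptor Tbxa2r (-1.15 ± 0.20, adjusted p = 0.00386) and the lysophosphatidic acid receptor Lpar6 (-2.18 ± 0.46, adjusted p = 0.0117). In old B1 against FO 2 were higher and 3 lower, and the endothelin receptor Ednrb was higher by 6.81 ± 0.52 (adjusted p = 1.13e-05). Of 6 receptor kinases and arrestins, 2 were higher in ABC than FO, Grk5 (1.82 ± 0.14, adjusted p = 2.14e-05) and Grk3 (1.81 ± 0.50, adjusted p = 0.0455). In old B1 against FO 2 were higher, Grk5 (1.49 ± 0.14, adjusted p = 4.56e-05) and the arrestin Arrb1 (0.88 ± 0.17, adjusted p = 0.00538).

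Downstream, 24 genes of cAMP signalling had 3 higher and 2 lower in ABC than FO, and 5 higher and 4 lower in old B1 than FO. The regulatory subunit of protein kinase A Prkar2b was higher than in FO in both, by 2.54 ± 0.28 (adjusted p = 0.000225, limma) in ABC and by 4.17 ± 0.28 (adjusted p = 4.87e-06) in old B1, while the phosphodiesterase Pde4d was lower in both (-1.57 ± 0.24, adjusted p = 0.00172, and -2.31 ± 0.24, adjusted p = 8.71e-05). Of 15 effectors of Gβγ, Gαq and Gα12/13, 2 were higher and 3 lower in ABC than FO. Pik3r6, the Gβγ-responsive adaptor of phosphoinositide 3-kinase γ, was higher by 5.06 ± 0.47 (adjusted p = 6.81e-05) and the Gβγ-activated exchange factor Prex1 by 1.05 ± 0.10 (adjusted p = 0.000118), and phospholipase Plcb2 was lower (-1.08 ± 0.20, adjusted p = 0.00520). In old B1 against FO 6 were higher and 2 lower, among the higher ones Plcb4 (3.21 ± 0.51, adjusted p = 0.00159). Pik3r6 (2.57 ± 0.47, adjusted p = 0.00351) and Prex1 (0.55 ± 0.10, adjusted p = 0.00474) were higher there too. Of 15 further modulators, 2 were higher in ABC than FO, among them Ccdc88a, a non-receptor activator of Gαi (1.32 ± 0.18, adjusted p = 0.000751).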

How the data were processed

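RNA of 12 samples in 4 groups of 3 was measured on 12 Affymetrix arrays, and 1 value per probe set and array was deposited by the authors as an intensity on a linear scale (3.00 to 22068). The tools affy and RMA are named, per the submitters' processing notes, and their versions and settings are among what is not given in the sources used here. No background correction is described, so low levels, and folds against them, may be inexact.

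The log2 of each intensity was tested. Of 45037 probe sets, 34945 carried 1 gene symbol, 932 several and 9160 none, and only the first kind was used. Symbols of 34741 were matched by gene ID to the reference table, and 0 were updated. For each gene the probe set of highest mean log2 intensity on the 12 arrays was taken, without a filter on dim probe sets. All 12 arrays were fitted with 4 group means in limma 3.58.1 (R 4.3.3, lmFit and eBayes, 8 residual and 2.37 prior degrees of freedom), and p-values were adjusted by Benjamini-Hochberg over 18193 genes. The number of arrays limits the precision.

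The members, the pathway and marker lists and the rule for members described array by array were chosen with earlier results of these data known. Promoters came from RefSeq's table of GRCm38.p6. Alternatives were other limma settings, array weights, only the 2 groups compared, a block for the replicate number, cyclic loess, median centring, dropping dim genes, the mean or any of a gene's probe sets, omission of each array in turn and a threshold of 0.01. A fit without old FO replicate 2 and old B1 replicate 3 together was added after the data had been seen. The procedure was tested on simulated data. Python 3.11.15 and matplotlib 3.10.9 drew the figures.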

Additional observations from a re-analysis of the deposited data

How the results depend on the processing

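The 22 tested results of members described array by array were recomputed under 23 alternatives each, which gave 506 values. The call was kept in 459 and lost in 47, the direction changed in 0, and 13 of the 22 results kept their call under every alternative run, among them Gnaz, Gnb4, Gng12, Rgs3 and, against old B1, Rgs1, Rgs2 and Rgs12. Rgs12 in old B1 against FO lost the call in 15 of 23. Settings that keep both group means cannot change a direction, nor can leaving out 1 array where the groups did not overlap. The 0 was thus largely fixed beforehand. Taking any of a gene's probe sets picks the lowest adjusted p, which favours a call. All alternatives reuse the same arrays, so the kept calls are no independent support. Fitting only the 2 groups compared, which leaves fewer arrays, ended the calls of Gng3 in old B1 against FO (adjusted p = 0.0916), Rgs18 (adjusted p = 0.0600 against FO and 0.131 against old B1) and Rgs10 (adjusted p = 0.108), by limma. For the untested differences of Gnb3 and Gng13, 90 of 92 values moved by less than 1 SD (the larger SD over 3 arrays of the 2 groups compared), the exceptions being the mean of both Gng13 probe sets. Most alternatives could not move them further, since they keep both group means or drop 1 of 3 arrays. The count therefore says little about how firm these differences are. With array weights ABC minus old B1 was -4.10 for Gnb3 and -3.82 for Gng13. Leaving out 1 array gave 8 to 13 members called in ABC against FO, 9 to 12 in ABC against old B1, 3 to 5 in old B1 against FO and 0 to 1 in old against young B1. At an adjusted p under 0.01, 6 and 7 members were called in the first and second of these. In old B1 against FO, 8 were called with array weights (4 higher, 4 lower) and 2 in a fit of both groups alone, and in old against young B1 1 (Gng3) with array weights or without both arrays that stand apart. Apart from the threshold and the smaller fit, the cause was not tested. Same-numbered samples deviated together in 3 of 18 pairs of same-numbered arrays (correlation over 0.1, from -0.39 to 0.23), and arrays of other numbers in 7 of 36 pairs (from -0.39 to 0.44). With 3 arrays a group, this cannot decide whether equal numbers share a mouse or a sort, and the labels do not say. With the replicate number as a block 11, 11, 4 and 0 members were called. There Gna15 was gained for Rgs1 lost in ABC against FO and for Rgs12 lost in old B1 against FO. Of members that the reported fit did not call, array weights called Gng11 (0.91, adjusted p = 0.0217) and Rgs10 (1.85, adjusted p = 0.000932) in ABC against FO, Gna13 (-0.26, adjusted p = 0.0463) and Gng12 (0.68, adjusted p = 0.0455) in ABC against old B1, and Gnb1 (0.27, adjusted p = 0.0358), Gng4 (-0.27, adjusted p = 0.0493), Gng7 (0.55, adjusted p = 0.0130) and Rgs2 (-1.27, adjusted p = 0.00342) in old B1 against FO, by limma. Centring on the array median shifted the median of all genes in ABC against FO to -0.114 and left 12 members called. Signal over background limits Gna15, Gnai1, Gnb5, Gng7, Gng8 and Rgs5, which lay below the median of their array on all 12 arrays.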
